A study of Mus musculus with 12 samples.

Results

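The V0 sector is the membrane-embedded part of the V-ATPase, the proton pump that acidifies lysosomes, endosomes, the Golgi and synaptic vesicles. The genes described here are the 10 genes Atp6v0a1, Atp6v0a2, Atp6v0a4, Atp6v0b, Atp6v0c, Atp6v0d1, Atp6v0e, Atp6v0e2, Atp6ap1 and Atp6ap2, taken by name from the 25239 genes in the expression table of the series. All 10 were listed and all 10 were among the 16167 genes with a p-value. The series compared HT22 cells, an immortalised mouse hippocampal line, kept with mesaconitine (MA, a diterpenoid alkaloid of Aconitum) at 800 μM for 72 h with untreated control cells (0 μM), and it made 3 input and 3 anti-m6A immunoprecipitated (IP) libraries per condition, 12 in all. No other allele or agent separates the groups in the labels, all libraries come from this single cell line, and the study dissolved MA in DMSO. The tables hold group comparisons and no value of a single library, so every fold change below carries the standard error of the deposited DESeq2 fit. That fit was taken here as 3 against 3 input libraries, which the table does not state. As given further below, over 2470 m6A peaks the change followed IP reads (Spearman's rho 0.28) and not input reads (0.01). Which libraries entered the fit is thus an assumption. Nothing in the labels says whether libraries came from separate cultures, so the DESeq2 p-values measure the spread between these libraries. The exomePeak2 p-values of m6A peaks come from a Poisson model of reads and do not measure that spread.

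The V-ATPase works as a rotary motor. The V1 sector in the cytosol burns ATP and turns a central rotor, and the V0 sector in the membrane carries the ring of c subunits that turns with it. Protons move through the a subunit, which touches the ring and has several paralogs that send the pump to different membranes. The d subunit caps the ring and joins it to the rotor of V1, and the e subunit is a small membrane protein of the static part. Atp6ap1 and Atp6ap2, also known as Ac45 and the prorenin receptor, are glycoprotein accessory subunits that help the V0 sector assemble. In neurons the pump loads synaptic vesicles and keeps lysosomes acid enough for autophagic cargo to be digested.

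A known feature of lysosomal genes is an E-box near the transcript start, which TFEB and related MiT/TFE factors as well as other E-box factors can bind. The letters searched were TCACGTG on both strands, in the RefSeq windows of build GRCm38.p6 that run from 250 bases before to 50 bases after each start. Windows were given for 9 of the 10 genes, 11 windows in all, and not for Atp6v0a2. Atp6v0b, Atp6v0d1 and Atp6v0e held the letters, and the other 6 genes with a window did not. Of all genes with a window, 4.29% held them in at least 1 window, and of the 12126 tested genes with a window 6.42% did. Of all 32851 windows, 3.77% held them. The 3 stretches are shown because they carry these matches, with TCACGTG in capitals, together with a following A where the match runs on both strands. The Atp6v0b stretch lies on the minus strand at chr4:117887330-117887389, directly before the start. The Atp6v0d1 stretch, on the minus strand at chr8:105566050-105566079, and the Atp6v0e stretch, on the plus strand at chr17:26676387-26676416, span the RefSeq start.
Atp6v0b: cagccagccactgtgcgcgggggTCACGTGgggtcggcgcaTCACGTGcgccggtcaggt
Atp6v0d1: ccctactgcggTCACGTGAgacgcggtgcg
Atp6v0e: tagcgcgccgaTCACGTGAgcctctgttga

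In Atp6v0b the CACGTG core occurred 2 times, with its first base at positions -36 and -18 from the start. In Atp6v0d1 the core began at position -3 and crossed the RefSeq start, and in Atp6v0e it began at position 4, inside the transcript. The RefSeq start used for Atp6v0e lies within the span that GENCODE gives the gene. For Atp6v0d1 the RefSeq start and the whole printed stretch lie before the GENCODE span. The matches in Atp6v0d1 and Atp6v0e read the same on both strands, a form held by 0.974% of all windows. As the map of matches shows, all of them fell close to the start. The 3 genes with a match had log2 fold changes after MA of 0.75, 0.40 and 0.34, which the text below takes up in turn. Atp6v0c, Atp6ap1 and Atp6ap2, with changes of 2.24, 0.64 and 0.64, had no match in their windows. A match is a description of letters, and whether any factor bound these sites was not tested. Among the tested genes, 778 had a window with TCACGTG, 14.4% of these were called higher after MA, and the share over all tested genes with a window was 7.05%. The median log2 fold change of these 778 genes was 0.07. In the V1 sector, 9 genes had a window and 1 of them held the letters.

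**Figure D1:**
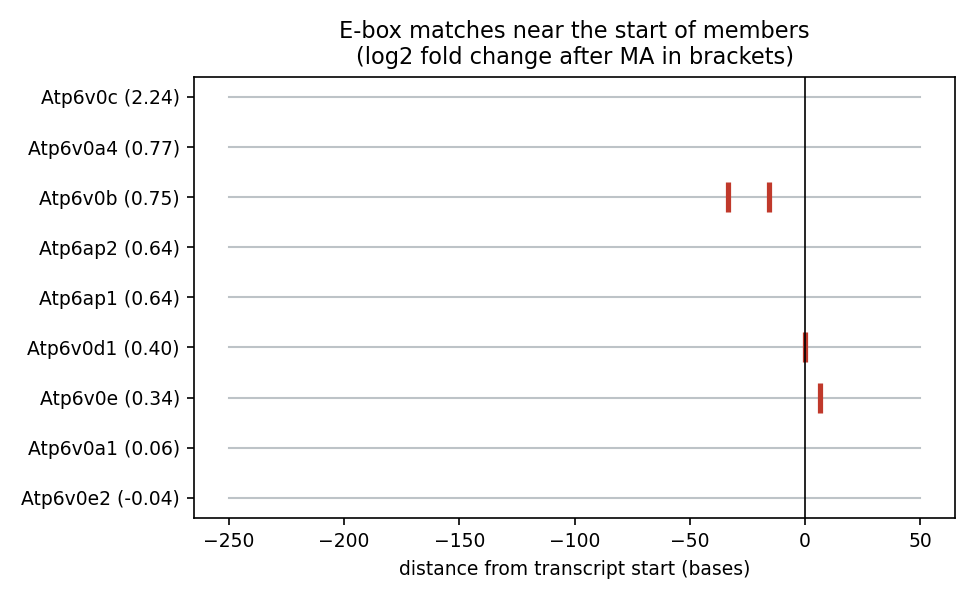
Position of CACGTG matches (red ticks) in the promoter windows of the 9 genes with one, on an axis of distance from the transcript start in bases, with each gene's log2 fold change after MA in brackets. Only Atp6v0b, Atp6v0d1 and Atp6v0e carry a match, and all 4 matches lie between positions -36 and 9.

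The levels of the 10 genes over both conditions spanned a wide range. The base mean, which is the mean normalized count over libraries, was divided by the length in kb of the coding transcript with the longest open reading frame. On this scale Atp6v0e had the highest level at 2266 per kb, followed by Atp6ap2 at 2143. Atp6v0b, Atp6v0a1 and Atp6v0d1 came next and close together, at 1409, 1408 and 1395 per kb, and Atp6ap1 stood at 1167. Of the a subunits Atp6v0a1 was the most abundant and Atp6v0a2 reached 568 per kb. Atp6v0a4, known from acid-secreting cells of the kidney and inner ear, was nearly absent at 6.30 per kb, from a base mean of 20.8 counts. Atp6v0c stood at 125 per kb and Atp6v0e2 at 70.1. The spread of these levels over libraries is not in the table, so the order of close neighbours cannot be told.

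**Figure D2:**
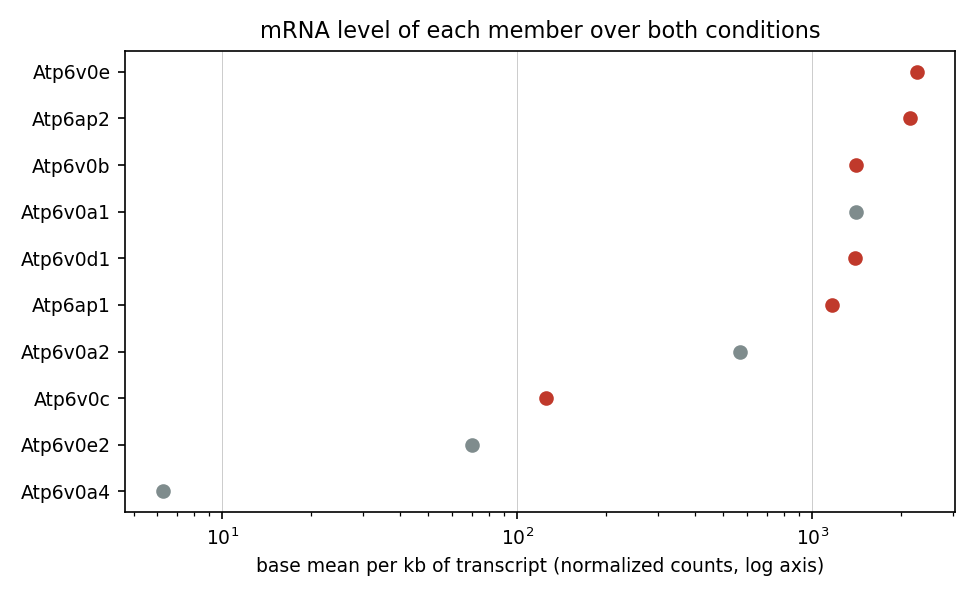
Base mean per kb of transcript, in normalized counts on a log axis, for each of the 10 genes over both conditions, with genes called higher after MA in red and the others in grey. Levels run from 6.30 for Atp6v0a4 to 2266 for Atp6v0e, and no error is drawn because the table gives none. The place of Atp6v0c is uncertain, since its reads can be split with the row of its pseudogene Atp6v0c-ps2.

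After MA, 6 of the 10 genes were called higher from the DESeq2 p-values, 0 were called lower, with or without a fold threshold, and 4 did not pass. One of the 6, Atp6v0c, shares sequence with a pseudogene, and with the rows of both summed it fell under the fold threshold, which leaves 5. A gene was called at an unadjusted p under 0.05 with a change of more than 1.2-fold, and by that rule 6.80% of all tested genes were called higher and 7.07% lower. The 6 were Atp6v0b, Atp6v0c, Atp6v0d1, Atp6v0e, Atp6ap1 and Atp6ap2. The same 6 also passed with the DESeq2 adjusted p under 0.05, a rule that called 5.70% of the genes with an adjusted p higher. The median log2 fold change of the 10 genes was 0.52, beside -0.01 over all tested genes. These are bulk libraries of one line, so more RNA per cell and a shift among kinds of cells cannot be told apart.

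The accessory subunits rose together. Atp6ap1 (ENSMUSG00000019087, chrX:74297097-74304721, plus strand) had a base mean of 2554 normalized counts and a log2 fold change of 0.64 with a standard error of 0.08. That is 1.55-fold, with a 95% interval from 1.40 to 1.72, and a DESeq2 adjusted p of 6.5e-15. Atp6ap2 (ENSMUSG00000031007, chrX:12587801-12617049, plus strand) had the higher base mean, 4980 counts, and the same size of change, 0.64 with a standard error of 0.08. Its interval on the fold scale ran from 1.40 to 1.73, and its DESeq2 adjusted p was 1.4e-13. Both genes lie on the X chromosome far apart from each other, and their intervals overlap almost fully. Atp6ap1 ranked 115 and Atp6ap2 ranked 133 by p among the 16167 tested genes.

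Of the c ring, Atp6v0b encodes the c″ subunit, of which the ring holds a single copy. The gene (ENSMUSG00000033379, chr4:117884326-117887333, minus strand) had a base mean of 1409 counts and rose by 0.75 on the log2 scale, with a standard error of 0.10. This was 1.68-fold (95% interval 1.47 to 1.93), with a DESeq2 adjusted p of 9.4e-12. This was the largest point value among the 6 called genes other than Atp6v0c, but its interval overlaps those of Atp6ap1 and Atp6ap2. The gene Gm12841 overlaps Atp6v0b on the other strand and shares 2.42% of the 50-base stretches of the Atp6v0b transcript.

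Atp6v0c encodes the c subunit proper, which fills most of the ring. The gene (ENSMUSG00000024121, chr17:24163866-24169702, minus strand) had the largest fold change of all 10, at 2.24 on the log2 scale or 4.74-fold, but also a large standard error of 0.56 and an interval from 2.20-fold to 10.2-fold. Its DESeq2 adjusted p was 0.00103. Its base mean was 148 counts, under that of every other ring, stalk or accessory member. The processed pseudogene Atp6v0c-ps2 has its own row in the table, with a base mean of 1417 counts and a log2 fold change of 0.05 (standard error 0.13). Of the 50-base stretches in the Atp6v0c transcript, 32.3% also occur in Atp6v0c-ps2 and 6.88% in Atp6v0c-ps1, so reads from the gene and its copies can be split between rows. Taking each base mean as the average of 2 groups of equal size, the rows of Atp6v0c and Atp6v0c-ps2 summed to 1446 counts in control cells and 1685 in MA cells. The log2 fold change of the sum was 0.22, or 1.16-fold, under the 1.2-fold threshold. The call of Atp6v0c thus holds for its own row and not for the sum, and the size of its change is uncertain.

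Atp6v0d1, the d subunit that joins the ring to the central rotor, rose less. The gene (ENSMUSG00000013160, chr8:105524465-105566047, minus strand) had a base mean of 2273 counts and a log2 fold change of 0.40 with a standard error of 0.08. On the fold scale this was 1.32, with an interval from 1.19 to 1.47 and a DESeq2 adjusted p of 6.2e-06. The interval of Atp6v0d1 did not overlap that of Atp6v0a1, which ran from -0.07 to 0.19 on the log2 scale. The paralog Atp6v0d2, known from osteoclasts and macrophages, was listed at a base mean of 0.

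The 3 a subunits did not pass the call. Atp6v0a1 (ENSMUSG00000019302, chr11:101009452-101063719, plus strand), the form known from synaptic vesicles and neuronal lysosomes, had a base mean of 3825 counts and a log2 fold change of 0.06 with a standard error of 0.06. Its interval reached from 0.955-fold to 1.14-fold, which leaves out a rise of 1.2-fold. Atp6v0a2 (ENSMUSG00000038023, chr5:124628576-124724455, plus strand), the form known from the Golgi and endosomes, had a log2 fold change of 0.02 with a standard error of 0.10, and an interval from 0.889-fold to 1.15-fold, which leaves it out too. Of its 50-base stretches 10.8% also occur in 4930404A12Rik, which overlaps it on the other strand. Atp6v0a4 (ENSMUSG00000038600, chr6:38048483-38124586, minus strand) had a point value of 0.77 with a standard error of 1.18, and an interval from 0.341-fold to 8.48-fold that is too wide to give a direction. The a3 paralog Tcirg1, known from osteoclast and lysosome membranes, was not among the 10 genes and had a log2 fold change of 0.18 with a standard error of 0.08, below the 1.2-fold threshold.

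The e subunits had unlike point values. Atp6v0e (ENSMUSG00000015575, chr17:26663231-26699647, plus strand) had a base mean of 1001 counts and rose by 0.34 on the log2 scale, with a standard error of 0.11, which is 1.27-fold with an interval from 1.09 to 1.48. Its DESeq2 adjusted p was 0.0211, the largest among the 6 genes called. Atp6v0e2 (ENSMUSG00000039347, chr6:48537615-48541801, plus strand), the form known for its expression in brain, had a base mean of 113 counts and a log2 fold change of -0.04 with a standard error of 0.29. The interval of Atp6v0e2, from 0.654-fold to 1.46-fold, includes the 1.27-fold of Atp6v0e, so these values do not show that the paralogs differ.

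**Figure D3:**
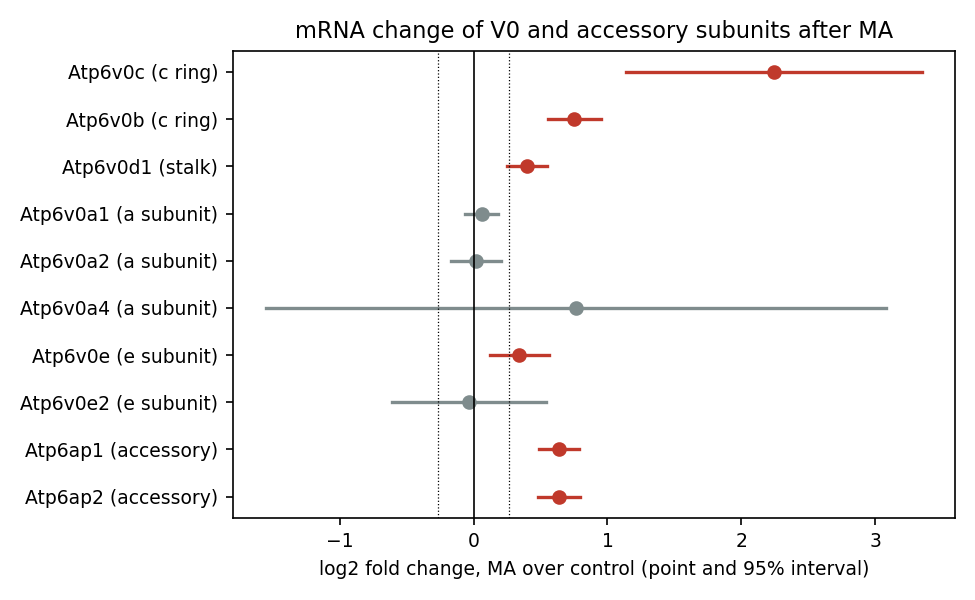
Log2 fold change of each gene, MA over control, as a point with its 95% interval, grouped by subunit role, with called genes in red and dotted lines at 1.2-fold. The 6 red intervals lie above 0, those of Atp6v0a1 and Atp6v0a2 straddle 0 within narrow limits, and Atp6v0a4 and Atp6v0e2 have wide ones.

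The V1 sector, the ATP-hydrolysing side of the pump, moved the same way. Of its 13 genes 10 had a p-value, 8 were called higher and 0 lower, with a median log2 fold change of 0.55 beside 0.52 for the V0 and accessory genes. Among genes with a base mean of at least 100 the medians were 0.51 over 8 V1 genes and 0.40 over 9 V0 and accessory genes. The 2 highest values, 2.90 for Atp6v1b1 and 2.19 for Atp6v1g2, came from base means of 0.658 and 6.29 counts and did not pass. The 2 lowest, 0.28 for Atp6v1d and 0.33 for Atp6v1f, both passed. No V1 gene with a base mean of at least 100 missed the call, whereas Atp6v0a1, Atp6v0a2 and Atp6v0e2 did so in the V0 sector. The difference between the sectors was not tested.

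Genes that build or regulate the pump were mixed. Of the 6 factors that assemble V0 in the endoplasmic reticulum or bind it, 2 were called higher, with a median log2 fold change of 0.02. These were Tmem199 at 0.56, which helps V0 assembly, and Rnasek at 0.45, a protein associated with the pump, while Tmem9 had -0.16 and Tmem9b -0.02. Rnasek had a DESeq2 adjusted p of 0.100. In the RAVE complex, which brings V1 and V0 together, Wdr7 rose by 0.43, Dmxl1 had -0.02, Rogdi had -0.20 and Dmxl2 was listed at a base mean of 0. Of the 5 TLDc proteins, a family that contacts V1, Meak7 was called higher at 0.41 and Oxr1 was called lower at -0.37. Ncoa7 had 0.03, and Tldc2 had -1.60 from a base mean of 1.40 counts.

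Partners of the pump in the lysosome membrane also included genes that rose. Of 13 ion transport genes of endosomes and lysosomes, 6 were called higher and 0 lower, with a median of 0.23. Mcoln1, the lysosomal calcium channel TRPML1, had 0.63, and Clcn5, a chloride-proton exchanger of endosomes, had 0.50. The lowest were Tpcn2, a lysosomal cation channel, at -0.10 and the sodium-proton exchanger Slc9a9 at -0.03. Of the 5 Ragulator genes, which tether mTORC1 signalling to the lysosome and touch the V-ATPase, 2 were called higher, Lamtor1 at 0.42 and Lamtor3 at 0.33. Lamtor2 had -0.05 and Lamtor5 had 0.20. The lists beside V0 were chosen with earlier results of these data known, so their counts are descriptions.

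**Figure D4:**
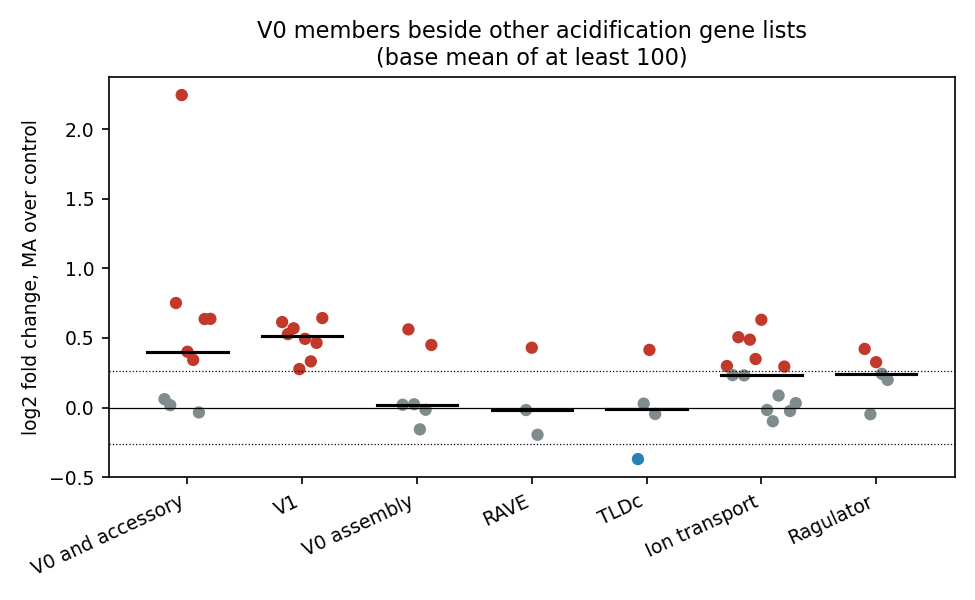
Log2 fold change, MA over control, of every gene with a base mean of at least 100 in 7 gene lists, with called genes in red (higher) or blue (lower), others in grey, a bar at each median and dotted lines at 1.2-fold. All 8 V1 genes are red, while V0 and the regulator lists mix red and grey points.

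The identity of the cells was read from markers fixed in the design. Of 10 neuron markers 5, Map2, Snap25, Nefl, Nefm and Gria1, were listed at a base mean of 0, and Rbfox3 and Syp reached 1.15 and 4.70 counts. Tubb3, a neuronal tubulin, was present at 473 counts and was called lower after MA, by a log2 value of -0.40 with a DESeq2 adjusted p of 0.0145. Dlg4, a postsynaptic scaffold, was present at 4073 counts with a change of -0.04, and no neuron marker was called higher. The 4 fibroblast markers had base means from 8906 to 134804 counts and 3 of them were called lower after MA, with log2 fold changes of -1.42 for Col3a1, -0.94 for Col1a1 and -0.45 for Col1a2. Of the 4 astrocyte and 4 microglia markers none was called in either direction at p under 0.05, and the highest base mean was 115 counts. Levels per group are not in the table. The fall of the collagens and of Tubb3 accompanied the rise of the V0 genes, and its part in that result was not tested.

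The MeRIP-seq comparison table listed 1 peak on the 10 genes, on Atp6v0b. The table holds 2643 peaks, and 12.5% of all tested genes carried at least 1 of them. Peaks outside this table were not analysed here, so it does not show that the other 9 genes lack m6A. The peak (mm10, chr4:117887259-117887329, minus strand) is 71 bases long and covers bases 1 to 71 of the Atp6v0b transcript in GENCODE M21, so it lies wholly in the 93-base 5′ UTR and begins where the printed stretch ends. Antibodies against m6A also recognise m6Am, the methylated base next to the cap, and reads at the very start of a transcript can come from either.

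In control cells the peak held 688 input and 488 IP reads, pooled over 3 libraries each. In MA cells it held 459 input and 729 IP reads. Input reads were thus fewer and IP reads more numerous after MA. The share of reads from IP libraries was 41.5% in control cells (Wilson 95% interval 38.7 to 44.3) and 61.4% in MA cells (58.6 to 64.1), intervals that cover counting error only. Over all peaks summed, the same share went from 48.1% to 62.6%, so the rise at Atp6v0b came with a rise across the whole table.

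After the size-factor scaling in the deposited peak table, the log2 ratio of IP to input at the peak was -0.10 in control cells and 0.51 in MA cells. The table gives the change as a value of its own, 0.58, which is not exactly the difference of these ratios. It corresponds to 1.49-fold, with an exomePeak2 adjusted p of 0.0105, and the peak was called higher. That p rests on counting error under a Poisson model and not on the spread between libraries. By the same rule 25.2% of all peaks with a p-value were called higher, so a called rise is common in this table. The median change of all peaks was 0.20. Of the 380 peaks of a single block that overlap the first 100 bases of an annotated transcript, 29.5% were called higher, with a median change of 0.25. The control ratio below 0 means that the control IP libraries held no excess of reads here over input.

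Scaled instead by the summed reads over all peaks, the pooled reads gave a change of 0.30 (95% counting interval 0.07 to 0.54). Split into its parts on that scale, the log2 ratio of MA to control was 0.15 for IP reads (-0.02 to 0.31) and -0.16 for input reads (-0.33 to 0.01). Neither part alone left 0 outside its interval. Relative to the input reads of all peaks, those at this peak were thus no more numerous after MA, while the expression value of the whole gene was 1.68-fold higher. This was not particular to Atp6v0b. Over 2470 peaks on tested genes the expression change did not follow input reads either (Spearman's rho 0.01, taken up below). Why the input reads of this 5′ end and the value of the whole gene differ was not tested.

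**Figure D5:**
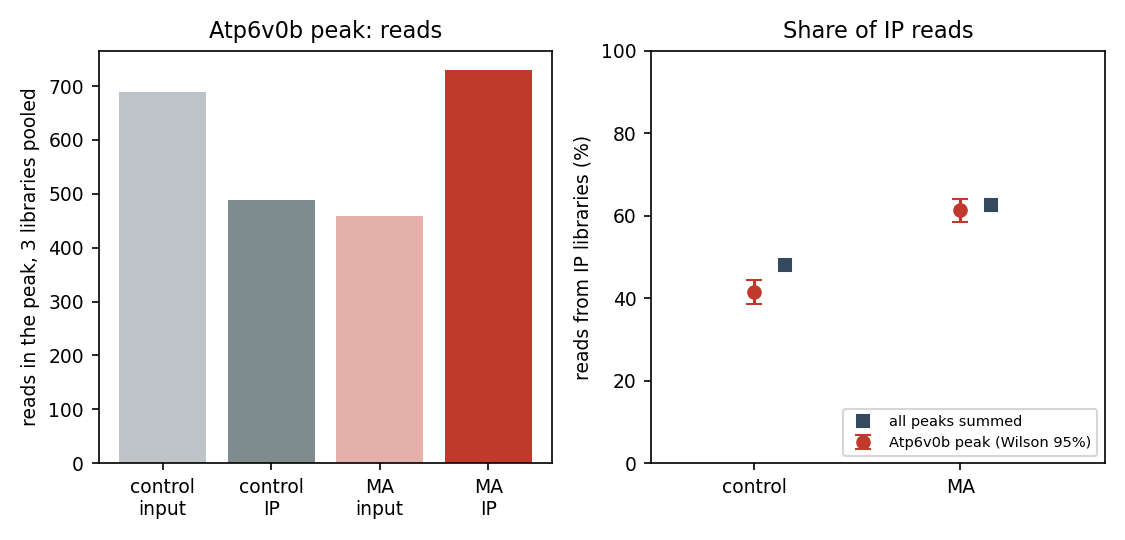
Left, reads in the Atp6v0b peak for the 4 groups, 3 libraries pooled in each. Right, the percent of these reads from IP libraries with Wilson 95% intervals (circles), which went from 41.5% to 61.4%, beside all peaks summed (squares), which went from 48.1% to 62.6%.

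The direction of every expression value above rests on a reversal of the sign of the deposited log2 fold change, since the table does not name its numerator. From the same sequencing, the study reported lysosome and V-type ATPase terms among the genes upregulated after MA, the same direction as the reversed values. Over 2470 peaks on tested genes, the reversed change was compared with the log2 of IP reads in MA over IP reads in control cells, and Spearman's rho was 0.28. Over the 166 peaks on genes with a p under 0.0001 this was 0.59. For input reads rho was 0.01 over the 2470 peaks and 0.026 over the 166, so the reversed change did not follow the input reads in either set. The points share libraries and genes, so these are descriptions, and the tables do not state which libraries the expression comparison used.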

How the data were processed

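RNA of HT22 cells was measured as input and as anti-m6A IP in 12 libraries (3 per condition and kind), prepared with a stranded kit with molecular identifiers. The authors used fastp for trimming, HISAT2 for alignment to mm10, StringTie for quantification and DESeq2 for the group comparison. Peaks were called and compared with exomePeak2. Versions are not given in the sources used here. In the expression table the deposited base mean is a signal, namely counts divided by size factors and averaged over libraries. The log2 fold changes, Wald statistic (a score) and p-values are as deposited by the authors, and the deposited read counts of each peak are sums over replicates. The number of columns of single libraries left out is 0. These columns are the authors' own comparisons, and no count model could be run, so the depth of single libraries is unknown. The summed reads over all peaks were 288659 and 267002 for control input and IP and 214778 and 359889 for MA input and IP.

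The sign of the expression change was reversed to read MA over control, which was taken as a comparison of input libraries. Intervals are normal 95% intervals from the deposited standard error, and Wilson intervals for shares of pooled reads. Gene models, positions and shared 50-base stretches (both strands) were computed from GENCODE M21 (GRCm38, the assembly of mm10), and promoter windows came from the RefSeq table. Scripts ran in Python 3.11.15 with scipy 1.17.1, pandas 2.3.3, numpy 2.4.6 and matplotlib 3.10.9. Calls, adjustment and counting intervals were tested on simulated data. The genes, the other lists and the motif were chosen with earlier results of these data known. All 10 genes are named, and of each list of pump-related genes the 2 highest and 2 lowest log2 fold changes among those with a p-value. Of the cell type markers, those named were chosen after their values were seen.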

Additional observations from a re-analysis of the deposited data

How the results depend on the processing

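The count of 6 genes called higher and 0 called lower held with the adjusted p as deposited, with a Benjamini-Hochberg adjustment over all deposited p-values, with no fold threshold, with centring on the median of all tested genes and with a base mean of at least 100. At 1.5-fold 4 genes were called higher, and Atp6v0d1 and Atp6v0e were not. The share of all tested genes called higher at 1.5-fold was not computed, so this count has no background beside it. Of the alternative rules, only the adjusted p as deposited has such a share, 5.70% of genes with an adjusted p. Centring changed no member's direction or side of the threshold. The median over the 10 genes fell from 0.52 to 0.40 with a base mean of at least 100, which leaves out Atp6v0a4, and was 0.52 without the genes that share 10% or more of their stretches. Summing Atp6v0c with its pseudogene, an alternative chosen after seeing the data, gave 0.22 in place of 2.24, and 5 genes called higher in place of 6. The change of the Atp6v0b peak was 0.58 as deposited, 0.37 centred on the median of all peaks and 0.30 from pooled reads scaled by all peaks, and the peak was called higher in each case. The last of these as a call was added after seeing the data. All of these calls rest on counting error of reads, without the spread between libraries. The value of 0.30 lies close to the 1.2-fold threshold, which is 0.26 on the log2 scale. No paired analysis was possible because the tables hold no values of single libraries, and leaving out each replicate could not be run for the same reason. The depth per library is unknown, and the wide intervals of Atp6v0a4 and Atp6v0e2 go with base means of 20.8 and 113 counts.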
